A study of Mus musculus with 8 samples.

Results

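Carbonic anhydrases and bicarbonate transporters of the kidney were followed in the renal cortex of mice that lack SPAK, a kinase (gene Stk39) that phosphorylates the NaCl cotransporter of the distal convoluted tubule. The list held 9 genes: the carbonic anhydrases Car2, Car4, Car12, Car14 and Car15 and the transporters Slc4a1, Slc4a2, Slc4a4 and Slc4a7. A gene was measured by a probe set annotated with its symbol alone, and 8 of the 9 genes had exactly 1 such probe set, out of 19938 genes measured in that way. No probe set carried the symbol Slc4a7, which encodes an electroneutral sodium bicarbonate cotransporter, so it is not analysed here. The groups were 4 SPAK KO mice and 4 wild-type (WT) littermates, called by the numbers of their titles. All were C57Bl6J males of 10 weeks, genotyped by PCR at weaning and fed a diet with 0.32% NaCl and 1% KCl. Total RNA of dissected cortex was labelled with biotin, 6 µg per sample, and hybridised to 1-colour Affymetrix arrays. The study asked, by its stated design, for genes that could together offset salt loss when SPAK is missing. The labels give neither the deleted part of Stk39 nor whether the deletion was confined to a cell type.

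Carbonic anhydrases speed the conversion of carbon dioxide and water to bicarbonate and protons, and the SLC4 proteins carry bicarbonate across the cell membrane. In the proximal tubule, enzymes on the membrane and in the cytosol act with apical proton secretion, and bicarbonate leaves to the blood through the cotransporter of Slc4a4. In the collecting duct, type A intercalated cells secrete protons and return bicarbonate through the exchanger of Slc4a1, while type B cells secrete bicarbonate through pendrin, the product of Slc26a4.

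Values are log2 RMA signals, on which a step of 1 is a doubling. A difference is the mean of the 4 SPAK KO arrays minus that of the 4 WT arrays, given ± limma's moderated standard error (SE) over the 8 arrays. A gene was called higher or lower when its Benjamini-Hochberg adjusted p over all 19938 genes was under 0.05. Stk39 itself was lower, at −1.38 ± 0.11 (SE, adjusted p = 5.8e-04). The SPAK KO arrays resembled each other closely. Among 6297 genes with a mean above 8, only 1 to 10 differed by more than 0.4 among the 6 SPAK KO pairs, and 3 did between WT 2 and WT 3, against 119 to 228 in the other 5 WT pairs. The labels name separate mice, but WT 2 and WT 3 were therefore counted as 1 sample in the WT mean and SD given for Car15 (n = 3). Differences, SE, intervals, p-values and mean levels of gene lists use all 4 WT arrays, unless an alternative fit is named. They make no allowance for arrays that agree. For SPAK KO the 4 array values or their range are given without an SD. The p-values of the 8-array fit measure only the spread between these arrays, which may be technical in part.

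Of the 8 genes measured, Car15 was called higher, 0 were called lower and 7 were not called. Over all genes 1.39% were called higher and 0.682% lower (278 and 136 genes), or 2.08% in either direction. Over all probe sets the medians of the SPAK KO arrays (6.09 to 6.12) lay below those of WT (6.13 to 6.19). With each array centred on its median the counts over all genes were 673 and 88, so that 88.4% rather than 67.1% of the calls were higher, and Car15 was again the only one of the 8. The median difference of the 8 genes was 0.04, and that of all genes was −0.01. All 4 SPAK KO arrays lay above all 4 WT arrays for Car15 and Car2, and below them for 0 of the 8 genes. Over all genes, 6.90% were separated upward in this way and 5.71% downward.

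**Figure D1:**
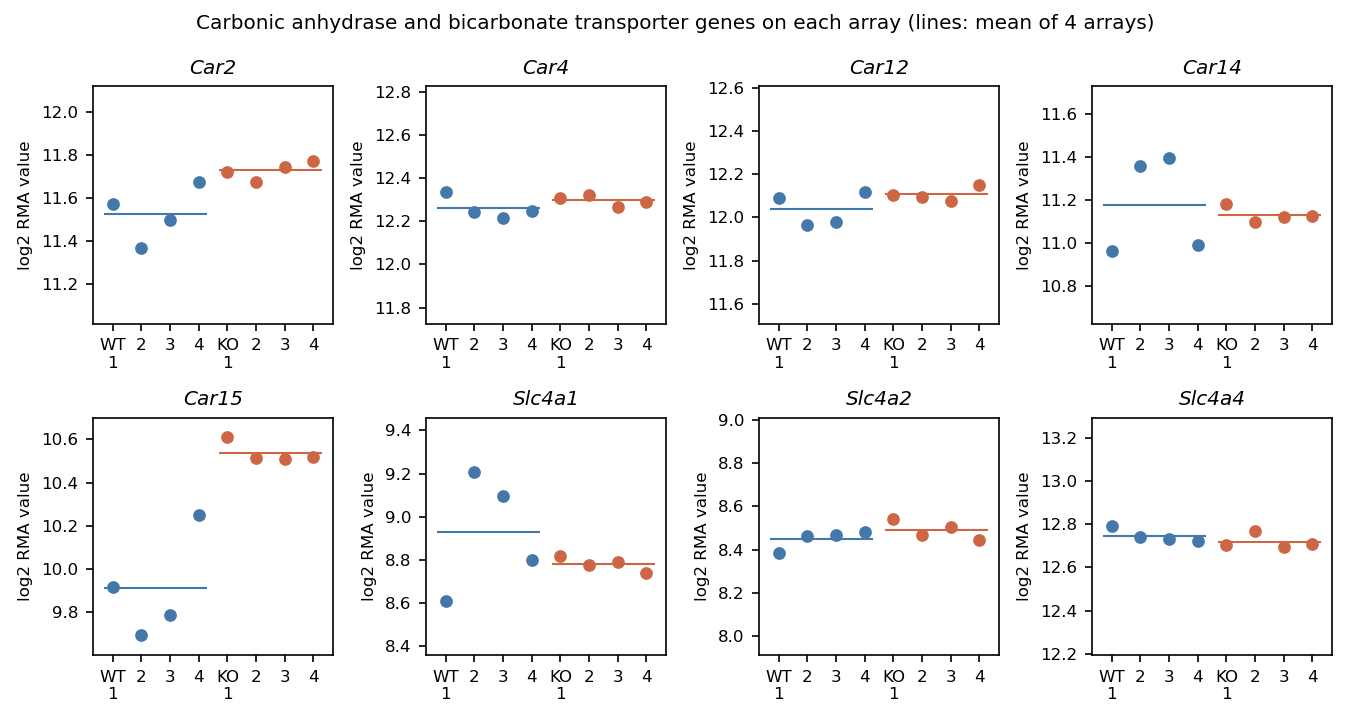
Log2 RMA value (vertical axis) of the 8 measured genes on each WT and SPAK KO array (horizontal axis), with every panel spanning the same range of log2 units; points are single arrays and lines are the mean of the 4 arrays of a genotype. The SPAK KO arrays of Car15 lie between 10.51 and 10.61, above every WT array, while those of Car14 lie between WT values of 10.96 and 11.39.

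Among the membrane-bound carbonic anhydrases, Car15 stood out from WT on every SPAK KO array. Its product is held on the outer cell surface by a lipid (GPI) anchor, and it is an active enzyme in mice whose human counterparts are pseudogenes. Car15 read 9.92, 9.69, 9.79 and 10.25 in WT 1 to 4, and in SPAK KO 1 to 4 it read 10.61, 10.51, 10.51 and 10.52. WT 4 was the highest WT array and still lay below all SPAK KO arrays. The WT mean was 9.97 ± 0.26 (SD, n = 3) with WT 2 and WT 3 counted once, and 9.91 over the 4 arrays. From the latter the difference was 0.63 ± 0.10 (SE), or 1.54-fold, with a 95% interval of 0.39 to 0.86 and an adjusted p of 0.0157. It was the 70th largest increase among all genes. In whole cortex, more cells of a type and more RNA per cell cannot be told apart. The call was lost without SPAK KO 1 (adjusted p = 0.0651) or SPAK KO 4 (0.0513). It was also lost when arrays that agree were counted once, which leaves 1 SPAK KO sample assumed to vary like WT: the difference was then 0.57 ± 0.19, with an unadjusted p of 0.0242 and an adjusted p of 1.00.

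**Figure D2:**
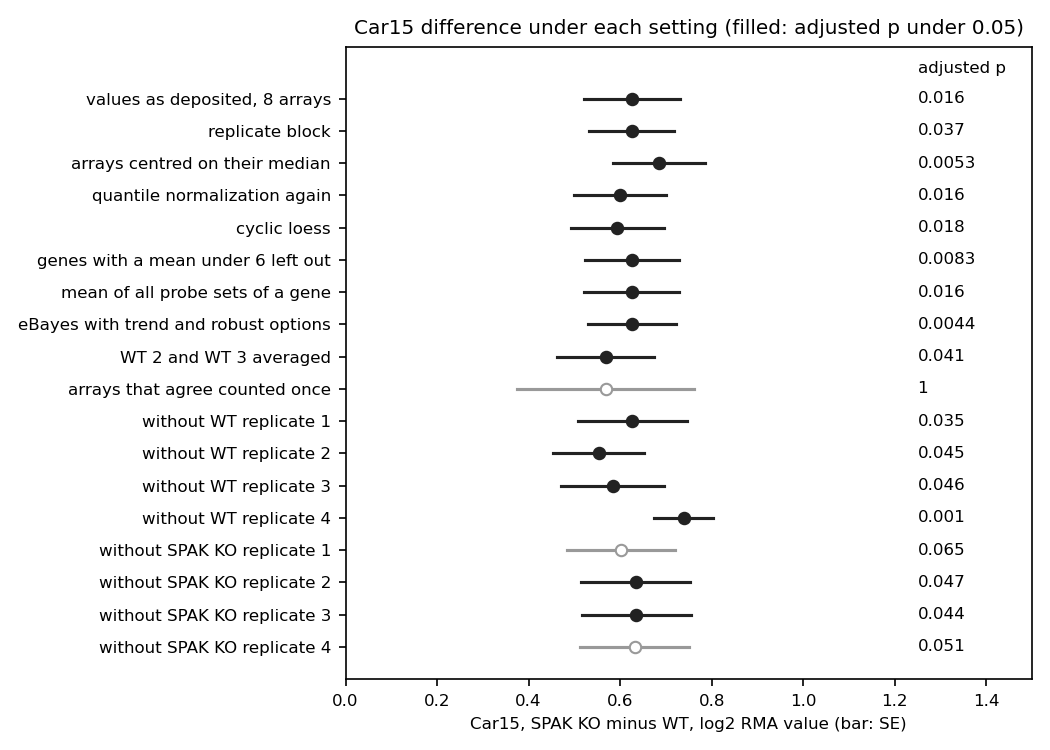
Car15 difference, SPAK KO minus WT in log2 RMA units (horizontal axis, bars: SE), under each processing setting (vertical axis), with limma's adjusted p at the right and filled points where it is under 0.05. The difference stays between 0.55 and 0.74 throughout, and 3 of the 17 alternatives to the 8-array fit miss the threshold.

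Car4, which encodes the other GPI-anchored enzyme of the list, gave no such separation. It read 12.34, 12.24, 12.21 and 12.25 in WT and 12.31, 12.32, 12.27 and 12.29 in SPAK KO, so the groups overlapped. The difference was 0.04 ± 0.05, and its 95% interval of −0.07 to 0.14 lay below the whole interval of Car15. On each array the log2 ratio of the Car15 to the Car4 signal was formed. It ran from −2.55 to −2.0 in WT and from −1.81 to −1.70 in SPAK KO. This within-array ratio does not depend on the scaling of the arrays, its absolute size has no meaning across probe sets, and its change was not tested.

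The 250 bases before the annotated start of both genes are shown, since these genes have products of the same membrane form and only Car15 was called. They come from the RefSeq promoter table of GRCm38.p6, run 5′ to 3′ on the gene's strand, and have CG dinucleotides in capitals. The window of Car15 is chr16:17838187-17838436 on the minus strand, and that of Car4 is chr11:84957504-84957753 on the plus strand.
Car15: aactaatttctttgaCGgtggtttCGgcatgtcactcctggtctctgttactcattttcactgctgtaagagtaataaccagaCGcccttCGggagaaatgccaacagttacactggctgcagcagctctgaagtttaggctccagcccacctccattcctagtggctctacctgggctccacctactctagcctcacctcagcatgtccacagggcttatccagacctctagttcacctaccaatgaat
Car4: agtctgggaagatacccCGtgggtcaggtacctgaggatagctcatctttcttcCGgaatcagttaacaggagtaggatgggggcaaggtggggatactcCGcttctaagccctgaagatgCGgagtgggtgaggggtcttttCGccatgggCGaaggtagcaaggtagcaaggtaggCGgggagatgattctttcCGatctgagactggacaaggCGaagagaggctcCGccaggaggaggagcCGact
The Car15 window holds 4 CG dinucleotides and the Car4 window 11, against a median of 6 over 32851 such windows. Of these, 92.13% hold at least 1, 44.42% at most 4 and 35.57% at least 11, so neither count is unusual. GC content was 50% for Car15 and 56.4% for Car4, with a median of 52.4% over all windows.

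The forkhead core TGTTTA was searched on both strands, as letters only, because Foxi1, a forkhead factor, is required for intercalated cells. It occurs in 12.03% of all windows. It was found in 1 of the 9 windows of the 7 listed genes that have one, that of Car12, and in 1 of the 5 called acid-base genes outside the list that have a window, Atp6v1b1, which encodes a proton pump subunit. The Car15 and Car4 windows do not hold these letters. Both matches are given with the bases around them and the core in capitals, for Car12 at chr9:66713663-66713685 and for Atp6v1b1 at chr6:83742907-83742936, both on the plus strand.
Car12: ctgatgacatcaTGTTTAgggtt
Atp6v1b1: taccagcttcccTGTTTAcagtcaacctgg
Foxi1, named after its values were seen, gave a difference of 0.38 ± 0.10 (SE, adjusted p = 0.0881).

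Car12 and Car14 encode enzymes that span the membrane with the catalytic part outside the cell. Car12 read 12.09, 11.97, 11.98 and 12.12 in WT and 12.10, 12.10, 12.08 and 12.15 in SPAK KO. Its difference was 0.07 ± 0.05 (95% interval −0.05 to 0.18, adjusted p = 0.513), and the groups overlapped. Car14 read 10.96, 11.36, 11.39 and 10.99 in WT and 11.18, 11.10, 11.12 and 11.12 in SPAK KO. WT 2 and WT 3 were high, WT 1 and WT 4 were low, and every SPAK KO array lay in the gap between them. The Car14 difference of −0.05 ± 0.10 (95% interval −0.26 to 0.17, adjusted p = 0.835) changed sign to 0.02 when WT 2 and WT 3 were averaged and to 0.01 with arrays centred on their median.

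Car2, the cytosolic enzyme that gives most of the kidney's carbonic anhydrase activity, was slightly higher on each SPAK KO array without being called. It read 11.57, 11.37, 11.50 and 11.67 in WT and 11.72, 11.68, 11.75 and 11.77 in SPAK KO. The lowest SPAK KO array exceeded WT 4 only in the third decimal place, so the separation was narrow. The difference was 0.20 ± 0.07 (95% interval 0.05 to 0.35, adjusted p = 0.148).

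Of the transporters, Slc4a4, Slc4a2 and Slc4a1 were all without a call. Slc4a4 encodes the electrogenic sodium bicarbonate cotransporter of the basolateral membrane of the proximal tubule. It read 12.79, 12.74, 12.73 and 12.72 in WT and 12.71, 12.77, 12.70 and 12.71 in SPAK KO. The difference was −0.03 ± 0.05 with an interval of −0.13 to 0.07, and it became 0.03 with arrays centred on their median. Proximal tubule markers had a mean level of 12.43 to 12.50 over 11 genes in WT and of 12.55 to 12.56 in SPAK KO, with 1 of the 11 called, Aqp1, higher by 0.34 ± 0.06. The median difference of the 11 was 0.05. All 4 SPAK KO arrays lay above all 4 WT arrays for 3 of them and below for 1, Slc5a2 (−0.17). Over all genes 2.08% were called in either direction, 6.90% were separated upward and 5.71% downward. With 1 array left out, Aqp1 kept its call in 5 of 8 fits. The part of these marker shifts in the Slc4a4 value was not tested. Slc4a2, which encodes a widely expressed chloride/bicarbonate exchanger, read 8.38, 8.46, 8.47 and 8.48 in WT and 8.54, 8.47, 8.51 and 8.45 in SPAK KO. Its difference was 0.04 ± 0.05 (interval −0.07 to 0.15), and its groups overlapped.

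Slc4a1 encodes the chloride/bicarbonate exchanger AE1 of type A intercalated cells, known in red blood cells as band 3, and varied more between WT arrays than between genotypes. It read 8.61, 9.21, 9.09 and 8.80 in WT and 8.82, 8.77, 8.79 and 8.74 in SPAK KO. WT 2 and WT 3 were the 2 highest arrays and WT 1 the lowest, with the SPAK KO arrays near WT 4. The difference was −0.15 ± 0.11 (95% interval −0.40 to 0.10, adjusted p = 0.509). The probe set does not separate the kidney from the red-cell transcript. Of 14 red blood cell markers, 6 were measured and 0 called. Their mean level was 5.26 to 5.39 in WT and 5.25 to 5.35 in SPAK KO, and 4 of the 6 had a mean under 6, so these levels are low. The part of red-cell RNA in the Slc4a1 values was not tested.

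**Figure D3:**
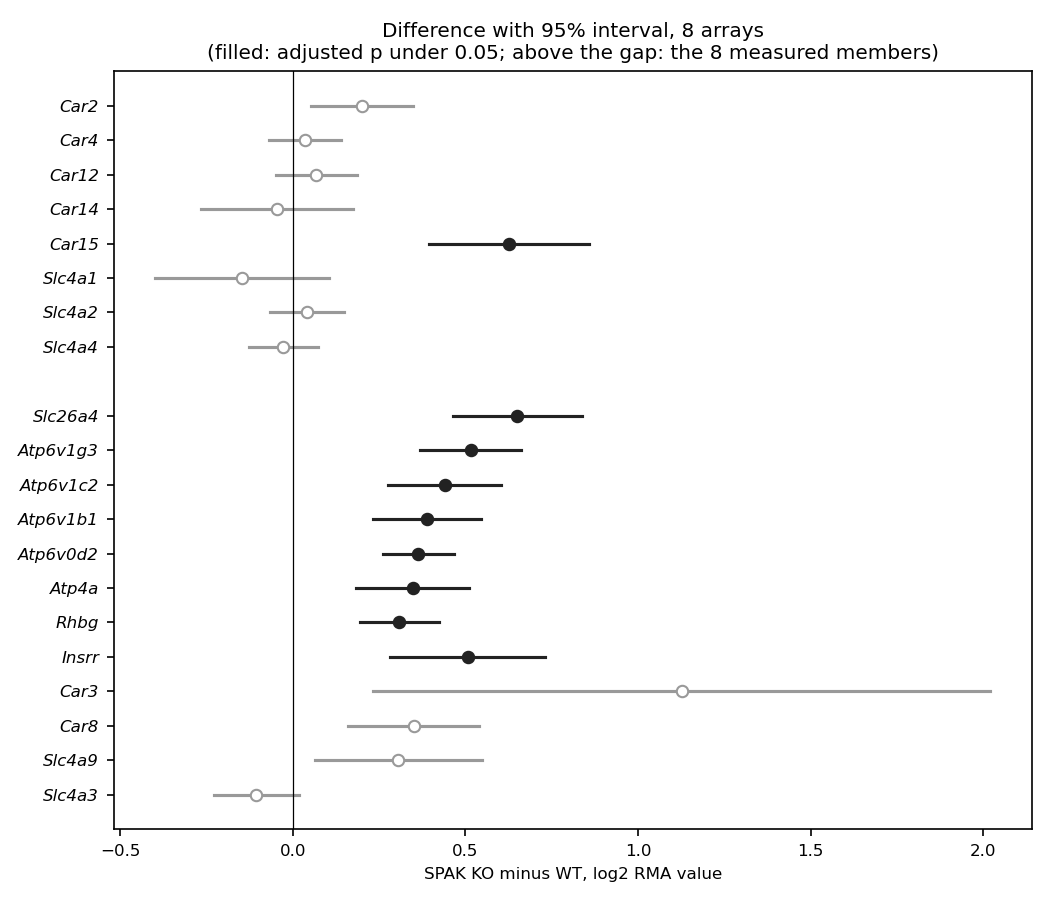
Difference between SPAK KO and WT in log2 RMA units (horizontal axis) with its 95% interval over 8 arrays, for the 8 measured genes of the list above the gap and for other acid-base genes below it; filled points have an adjusted p under 0.05. Car15, at 0.63, lies near Slc26a4, at 0.65, and the other 7 genes of the list lie between −0.15 and 0.20.

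The other acid-base genes came from 5 lists with 53 measured genes, of which 8 were higher, 0 lower and 45 not called. Their median difference was 0.06. Groups did not overlap for 13 of them upward and 3 downward. Over all genes 1.39% were called higher and 0.682% lower, and 6.90% and 5.71% were separated upward and downward. The lists were chosen with earlier results of these data known, so setting them beside all genes is not a test of enrichment. Of 11 other carbonic anhydrase genes 0 were called. By their smallest p, Car8 and Car3 led them. Car8 encodes a relative of the enzymes without catalytic activity. It read 6.50, 6.52, 6.89 and 6.58 in WT and 7.02, 6.98, 6.89 and 6.99 in SPAK KO, a difference of 0.35 ± 0.08 (adjusted p = 0.0707) that was called in 5 of 17 alternatives. Car3, a cytosolic enzyme of low activity, lies beside Car2 in a run of carbonic anhydrase genes with Car1 and Car13. It read 11.25, 9.81, 9.78 and 11.85 in WT and 11.82, 11.76, 11.76 and 11.85 in SPAK KO, so WT 2 and WT 3 were far below the other 6 arrays. The Car3 difference of 1.13 ± 0.40 had an adjusted p of 0.171, which became 0.0371 without WT 4. Among the neighbours of Car2, Car1 and Car13 gave 0.20 ± 0.13 and 0.03 ± 0.05 and were not called. These were named for their position, after their values were seen.

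Of the 6 other SLC4 genes measured 0 were called. The leading ones were Slc4a9, a bicarbonate transporter gene of type B cells, and Slc4a3, another anion exchanger gene. Slc4a9 read 10.44, 9.95, 9.91 and 10.30 in WT and 10.41 to 10.49 in SPAK KO, with WT 1 inside the SPAK KO range. Slc4a3 gave −0.11 ± 0.06 (adjusted p = 0.328), and its second, dimmer probe set gave −0.15. Of 10 SLC26 anion exchangers 1 was higher, Slc26a4. Of 13 genes of acid and ammonia secretion 6 were higher. They were 4 genes of the vacuolar proton pump (Atp6v1g3, Atp6v1c2, Atp6v1b1 and Atp6v0d2, at 0.52, 0.44, 0.39 and 0.36), the proton-potassium pump gene Atp4a (0.35 ± 0.07, adjusted p = 0.0439) and the ammonia channel gene Rhbg (0.31). Of 13 regulators and sensors measured 1 was higher, the alkali-sensing receptor gene Insrr, at 0.51 ± 0.10. Slc26a4, Atp6v1g3 and Atp6v0d2 were called whichever of the 8 arrays was left out, Atp6v1c2 in 5 of these 8 fits, Rhbg in 4, Atp6v1b1 and Insrr in 2 each and Atp4a in 1. None of the 8 was called with arrays that agree counted once, a fit that calls 0 genes in all, with 618 at an unadjusted p under 0.05 where chance alone gives 997.

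Car15 and Slc4a1 were set beside these genes array by array. The log2 ratio of the Car15 to the Slc26a4 signal was 0.47 to 0.65 in WT and 0.50 to 0.62 in SPAK KO, so it overlapped fully between genotypes. The same ratio to Slc4a9 did not overlap, at −0.52 to −0.05 in WT and 0.02 to 0.15 in SPAK KO. The ratios to Atp6v1b1 and Insrr were higher in SPAK KO by 0.24 and 0.12 on average, and for both the lowest SPAK KO array lay just below the highest WT array. The ratio of Slc4a1 to Atp6v1b1 was −1.71 to −1.12 in WT and −2.0 to −1.87 in SPAK KO, without overlap. The ratio of Slc4a1 to Aqp6, a water channel gene of type A cells, was −0.02 to 0.35 in WT and −0.33 to −0.23 in SPAK KO, also without overlap. The ratio of Slc4a1 to Kit, a further type A marker, overlapped, at 0.97 to 1.92 and 1.08 to 1.28. These ratios were chosen after the values were seen and carry no test. Among 8 markers of all intercalated cells 5 were higher, among 5 of type B cells 3 were higher, and among 4 of type A cells 0 were called. Groups were separated upward for 7 of the 8, 3 of the 5 and 1 of the 4, and downward for 0. All 4 type A markers had a difference above 0, with a median of 0.19. Over all genes 1.39% were called higher and 0.682% lower, and 6.90% and 5.71% were separated upward and downward. Mean levels of the type A list were 7.93 to 8.08 in WT and 8.21 to 8.29 in SPAK KO, and those of the type B list 8.74 to 9.04 and 9.30 to 9.36. Some markers of other tubule segments passed the test as well, and the same shares over all genes stand beside their counts. Mean levels of 5 thick ascending limb markers were 9.72 to 9.79 in WT and 9.95 to 9.98 in SPAK KO, with 1 called higher (Cldn16), all 4 SPAK KO arrays above WT for 4 of the 5 and a median difference of 0.24. Those of 4 distal convoluted tubule markers were 10.12 to 10.29 and 9.62 to 9.66, with 2 called lower (Pvalb and Trpm6), 3 of the 4 separated downward and a median difference of −0.42. Of 7 principal cell markers, 1 was called higher (Scnn1b) and 2 lower (Aqp2 and Aqp4). Groups did not overlap for 2 of the 7 upward and 2 downward. With 1 array left out, Scnn1b kept its call in 2 of 8 fits, and Aqp2 and Aqp4 in 1 each. Aqp4 had a mean of 5.38, a low level. The marker lists were chosen with earlier results of these data known. The part of these marker shifts in the Car15 value was not tested. Of the all-type and type B lists, 7 and 3 genes are also counted among the acid-base genes above.

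**Figure D4:**
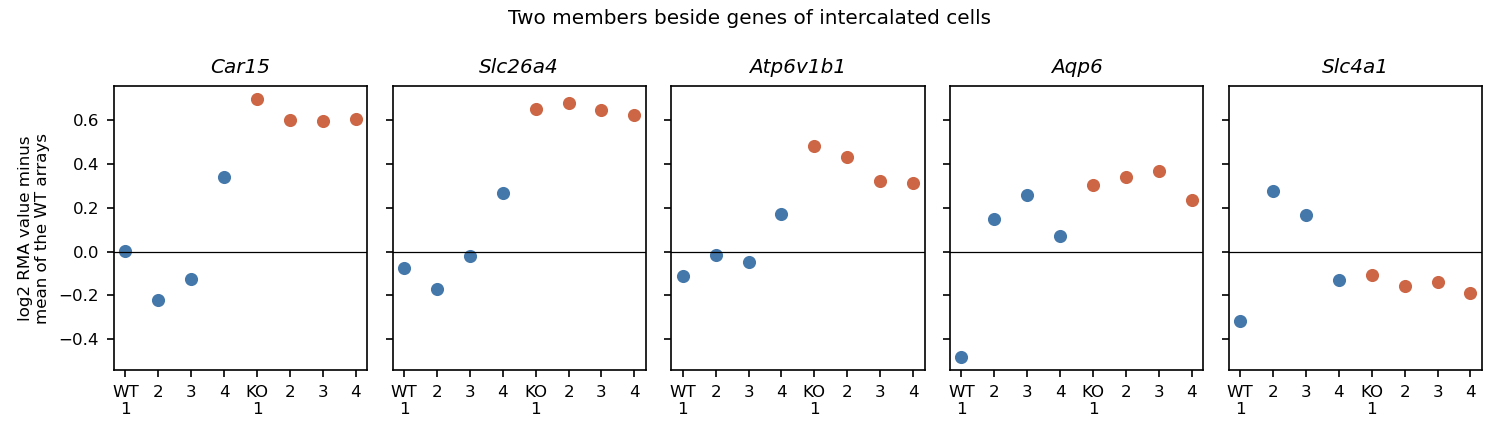
Log2 RMA value minus the mean of the 4 WT arrays (vertical axis) on each array (horizontal axis) for Car15 and Slc4a1 and for 3 genes of intercalated cells. WT 4 is the highest WT array for Car15, Slc26a4 and Atp6v1b1, and the SPAK KO arrays of Slc4a1 lie within its WT range of 8.61 to 9.21.

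Genes with the most similar profile were sought for the 3 listed genes that varied most, by the root mean square (RMS) difference between mean-centred values over the 8 arrays. For Car15 they were Dmgdh (RMS difference 0.050), Napsa (0.054) and Gnmt (0.057). These encode dimethylglycine dehydrogenase, an aspartic protease and glycine N-methyltransferase. All 3 were called higher, which their choice by likeness to Car15 on the same arrays largely fixed in advance. With 1 array left out, Dmgdh kept its call in 3 of 8 fits, Napsa in 2 and Gnmt in 4. Of 6 genes of intercalated cells, chosen after their values were seen, Slc26a4 ranked 4th among all genes (0.065), Insrr 9th (0.082) and Hepacam2 16th (0.107). Atp6v1b1, Oxgr1 and Slc4a9 ranked 86th, 112th and 230th (0.163, 0.176 and 0.207). The 6 came from the all-type and type B lists. The other markers of those lists and the type A markers were not ranked. Differences of these unranked markers ran from −0.03 ± 0.04 (Atp6v0a4) to 0.52 ± 0.07 (Atp6v1g3). The ranks therefore do not describe intercalated cell genes as a set. For Slc4a1 the nearest genes were Pigz (0.038), Kcnk5 (0.038) and Cdca7l (0.046). For Car14 they were Sgms1 (0.040), Cfi (0.040) and Alas1 (0.044). None of these nearest genes of Slc4a1 and Car14 was called. As the arrays fall into groups that agree, such likeness describes these 8 arrays only.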

How the data were processed

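The authors deposited log2 signals for every probe set on each of the 8 arrays. Per the submitters' processing notes these came from Affymetrix Expression Console and its RMA procedure, which corrects background, normalizes between arrays and combines probes. Versions and genome build are not given in the sources used here. No detection calls come with the values, and the number of arrays limits the precision.

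Of 35556 probe sets, 21789 had exactly 1 gene symbol in the platform annotation, 1621 had several and 12146 none. Where a gene had several, the brightest on average was kept, which left 19938 genes. They were fitted by lmFit and eBayes of limma 3.58.1 (R 4.3.3) with genotype as the sole factor, and p-values were adjusted by Benjamini-Hochberg over all genes. The procedure was tested on simulated data in which all arrays were independent. That setting has no arrays that agree, so the test does not cover the error rate of the calls given here. Alternatives were a replicate block, 3 further normalizations, a floor of 6 on the mean, the mean of all probe sets, trend and robust options (statmod 1.5.0), averaging of arrays that agree, and leaving out each array.

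Named genes were every listed gene, Stk39, in each acid-base list the called genes or else the 2 with the smallest p, the called markers, and the 3 genes nearest in profile to the 3 most variable listed genes. Outside the tubule lists 1 marker was called, the immune cell gene Cd3e, with a difference of −0.31. Members and lists were chosen with earlier results of these data known. Promoter windows were cut from the RefSeq table of GRCm38.p6. In 1839 overlapping windows on opposite strands the sequences were reverse complements in all 1839. The coordinates printed belong to that table alone, as the build behind the array values is unknown here.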

Additional observations from a re-analysis of the deposited data

Results flagged for a closer look

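Among 80 groups of 4 arrays, from 40 named genes in both genotypes, 5 had an array far from the other 3 by Dixon's criterion, where chance gives about 1 in 20. SPAK KO 1 was the highest SPAK KO array for Car15 at 10.61, the others lying at 10.51 to 10.52. SPAK KO 1 stood apart for Gnmt at 8.56 and for Cfi at 6.08 as well. WT 4 stood apart from the other WT arrays for Gnmt at 8.12 and for Aqp4, a water channel gene of principal cells, at 5.75.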

How the results depend on the processing

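Car15 was higher in all 17 alternatives, by 0.55 to 0.74, and was called in 14. The exceptions were the fits without SPAK KO 1, without SPAK KO 4 and with arrays that agree counted once. Car2, Car4, Car12, Slc4a1 and Slc4a2 kept their direction and stayed uncalled in all 17. Car14 turned positive when arrays were centred on the median (0.013), when WT 2 and WT 3 were averaged or arrays that agree were counted once (0.021 each), and without WT 2 (0.016) or WT 3 (0.027), with a range of −0.116 to 0.027 over the fits without 1 array. Slc4a4 became 0.031 with centring. Cfi turned to 0.010 with centring, 0.013 with quantile normalization again, 0.0053 with cyclic loess, 0.0022 with WT 2 and WT 3 averaged or arrays that agree counted once, and 0.019 without WT 3, with −0.104 as its lowest value when an array was left out. Alas1 became 0.011 without WT 2 and was −0.123 without WT 4. The causes were not tested. An exact permutation test over the 8 arrays gives p = 0.0286, its smallest, to any gene whose groups do not overlap and treats arrays that agree as independent, so it adds nothing to the separation of Car2 and Car15. It gave 0.229 to 0.629 for the other 6 genes.

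Counts of genes called higher and lower were 673 and 88 with centring (13 other acid-base genes higher), 526 and 241 with trend and robust options, and 175 and 78 with WT 2 and WT 3 averaged. With means under 6 left out 462 were higher. With arrays that agree counted once the counts were 0 and 0, with 0 listed and 0 other acid-base genes, 618 genes at an unadjusted p under 0.05 (997 by chance) and a smallest adjusted p of 0.0583. Leaving out 1 array gave 106 to 407 higher and 50 to 218 lower genes, 0 to 1 listed genes and 3 to 11 other acid-base genes higher.

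With the replicate number as a block, 129 genes were higher and 45 lower, 4 other acid-base genes were higher, and Car15 kept its call (adjusted p = 0.0373). Whether the numbers pair the arrays cannot be decided from these values, because the SPAK KO arrays hardly differ from each other. Over 6297 genes, deviations of same-numbered arrays correlated at 0.07, 0.10, −0.07 and 0.19. Of the WT arrays, WT 2 and WT 4 correlated best with their own number, and WT 1 and WT 3 with another.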
